A study of Mus musculus with 12 samples.

Results

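Chemokines are small secreted proteins that guide cells, and they act through receptors on the cell surface. Of the 22915 genes in the deposited table, 10 are described here, picked by symbol as members of the chemokine ligand and receptor families: the CC ligands Ccl2 and Ccl7, the CXC ligands Cxcl1, Cxcl9, Cxcl10, Cxcl12 and Cxcl16, the CX3C ligand Cx3cl1, and the receptors Cxcr4 and Ackr3.

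The samples were primary cardiomyocytes of adult male C57/Bl6 mice, 12 weeks of age, kept for 24 h in normoxia. Cells received PBS, mLIF, mOSM or hlOSM, with 3 RNA sequencing libraries in each of the 4 conditions, 12 in all, and the labels give 25 ng/mL for each cytokine, where the methods of the paper give a lower dose. In mouse cells mLIF acts through LIFR and mOSM through OSMR, whereas hlOSM, a mouse OSM engineered to carry the AB loop of the human protein, signals by both receptors. The paper's methods speak of biological replicates without saying whether these were separate animals or cultures, and every p-value measures only the spread between these libraries.

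Chemokines bind to heparan sulfate on cell surfaces and matrix, form gradients, and activate receptors that couple to Gi proteins in leukocytes, endothelial cells and other cells. Their classes are named for the spacing of the first cysteines, and CC ligands act mostly on monocytes and other mononuclear cells, whereas CXC ligands such as Cxcl1 act on neutrophils. In the injured heart they are known for drawing leukocytes into the tissue, and Cxcl12 with its receptors Cxcr4 and Ackr3 is known for its part in vessel growth.

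Values are normalized counts, which the authors scaled and rounded to whole numbers, with library totals between 2745748 and 2911891. These totals are not read numbers, and the depth of each library is not in the table. Changes are log2 ratios with 1 added to each value, tested with limma in one fit of all 12 libraries, and a gene was called at a Benjamini-Hochberg adjusted p under 0.05 over the 13184 genes with a value of at least 10 in at least 3 libraries. All 10 members passed that filter, Cxcl9 only through its values in hlOSM and Cxcr4 without any value in hlOSM that reached 10. The 3 comparisons with PBS share the PBS libraries. Replicate numbers held 1.7% of the sum of squares within conditions over all genes tested, where unrelated libraries would give 25% on average, a check added after the data were seen. Replicates of different number thus differed hardly at all on average over conditions. Whether such a difference was removed before deposit is not given in the sources used here. If it was, the fit counts too many residual degrees of freedom and its p-values are too small. With replicate number as a block, 784 genes were called with mLIF, 3330 with mOSM and 4120 with hlOSM against PBS, beside 1307, 4120 and 5002 without it, and each call of a member that this block lost is named below. In these bulk samples fewer cells of a type and less RNA per cell cannot be told apart.

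**Figure D1:**
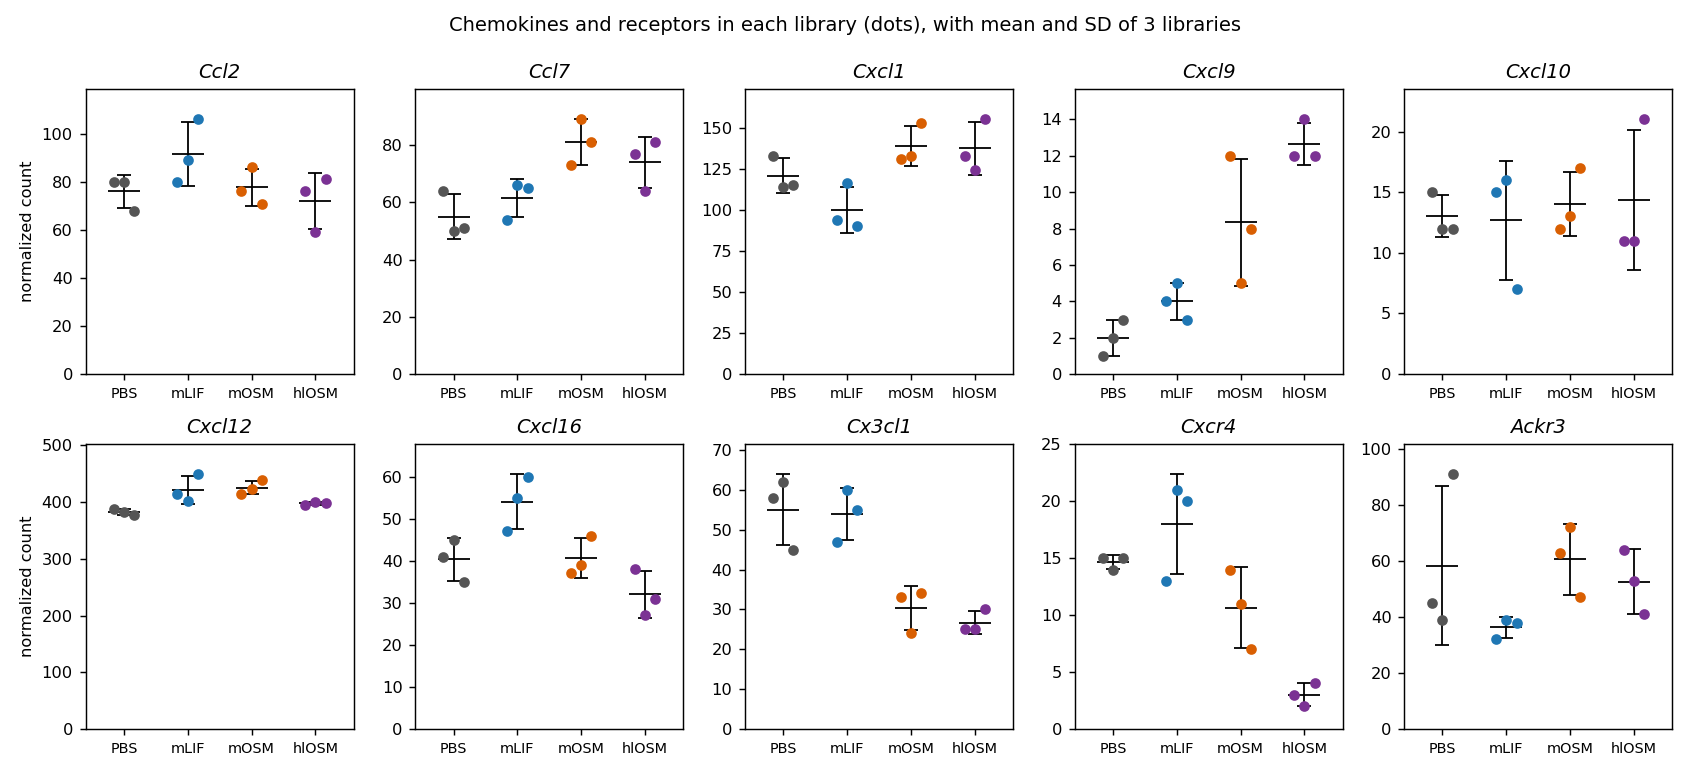
Normalized counts (vertical axis, from 0) of the 10 members in the 12 libraries, 1 panel per gene, by condition, with dots for libraries, long lines for the mean and short-capped bars for the SD of 3 libraries. Cxcl9 sits between 1 and 3 in PBS and between 12 and 14 in hlOSM, and Cxcr4 between 14 and 15 in PBS and between 2 and 4 in hlOSM.

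Per kb of exon, the scale used here to compare levels between genes, the mean level in PBS was highest for Ccl7 at 68.7 normalized counts per kb. Ccl2 at 66.8 and Cxcl1 at 64.4 per kb followed, and the libraries of neighbours in this order overlapped. Cxcl12 stood at 46.8 per kb, below all of these. Ackr3 at 17.4, Cx3cl1 at 14.0 and Cxcl16 at 13.4 per kb came next, and again the libraries of neighbours overlapped. The lowest levels per kb were those of Cxcr4 at 8.11, Cxcl10 at 5.77 and Cxcl9 at 0.663, and among these 3 the libraries did not overlap.

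With hlOSM the order of levels per kb was Ccl7 at 92.4, Cxcl1 at 73.2, Ccl2 at 63.3, Cxcl12 at 48.6, Ackr3 at 15.7, Cxcl16 at 10.6, Cx3cl1 at 6.79, Cxcl10 at 6.36, Cxcl9 at 4.20 and Cxcr4 at 1.66. Libraries of neighbours in this order did not overlap between Ccl2 and Cxcl12, Cxcl12 and Ackr3, Cxcl16 and Cx3cl1, Cxcl10 and Cxcl9, and Cxcl9 and Cxcr4. Cxcr4 thus stood lowest per kb, where in PBS it stood above Cxcl10 and Cxcl9. With mOSM the level per kb was highest for Ccl7, above Cxcl1 at 74.1, Ccl2 at 68.2, Cxcl12 at 52.1, Ackr3 at 18.1, Cxcl16 at 13.5, Cx3cl1 at 7.72, Cxcl10 at 6.22, Cxcr4 at 5.90 and Cxcl9 at 2.76. The libraries of neighbours overlapped between Cxcl1 and Ccl2, between Ackr3 and Cxcl16, and at each step from Cx3cl1 down to Cxcl9. With mLIF the order per kb was Ccl2 at 80.6, Ccl7 at 77, Cxcl1 at 53.3, Cxcl12 at 51.6, Cxcl16 at 17.9, Cx3cl1 at 13.7, Ackr3 at 10.9, Cxcr4 at 9.96, Cxcl10 at 5.62 and Cxcl9 at 1.33. There the libraries of neighbours overlapped between Ccl2 and Ccl7, Cxcl1 and Cxcl12, and Ackr3 and Cxcr4.

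With mLIF, no member was called against PBS by limma, where 5.47% of all genes tested were called higher and 4.44% lower. These shares are 1307 genes, a number that was 502 without mLIF replicate 3, 626 without PBS replicate 3, 830 without mLIF replicate 1 and 856 without mLIF replicate 2. At an unadjusted p under 0.05 stood 4 members (Cxcl1, Cxcl12, Cxcl16 and Ackr3) and 3383 of all genes tested. The median log2 change of the 10 members was 0.152, beside 0.00037 over all genes tested.

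With mOSM, 3 members were called higher (Ccl7, Cxcl9 and Cxcl12), beside 15.4% of all genes, and 1 lower (Cx3cl1), beside 15.8%. The members' median log2 change was 0.114, beside -0.00432 over all genes tested.

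With hlOSM, 2 members were called higher (Ccl7 and Cxcl9), beside 18.2% of all genes, and 2 lower (Cx3cl1 and Cxcr4), beside 19.8%. The members' median log2 change was -0.00554, beside -0.00525 over all genes tested. Both counts of members lie near the share over all genes tested.

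Ccl2 (ENSMUSG00000035385, chromosome 11, 82035571 to 82037453 in mm10) encodes a CC ligand that draws monocytes through Ccr2. It stood at 80, 80 and 68 normalized counts in PBS, at 80, 89 and 106 in mLIF, at 76, 86 and 71 in mOSM and at 76, 59 and 81 in hlOSM. The highest library was in mLIF and the lowest in hlOSM, and each cytokine's libraries overlapped those in PBS. Its log2 change was 0.26 after mLIF (95% interval -0.01 to 0.53, adjusted p = 0.21), 0.03 after mOSM (-0.24 to 0.30, adjusted p = 0.886) and -0.09 after hlOSM (-0.36 to 0.18, adjusted p = 0.638). Between hlOSM and mLIF the log2 difference was -0.35 (-0.62 to -0.08, adjusted p = 0.0725). That difference was past the threshold without mLIF replicate 1 (-0.44, adjusted p = 0.0478) and without hlOSM replicate 3 (-0.44, adjusted p = 0.0418). The sign with hlOSM also rests on 1 library, since without hlOSM replicate 2 the log2 change against PBS was 0.05.

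Ccl7 (ENSMUSG00000035373, chromosome 11, 82045712 to 82047525) encodes a CC ligand of monocytes that acts on several CC receptors. It stood at 64, 50 and 51 in PBS, at 54, 66 and 65 in mLIF, at 73, 89 and 81 in mOSM and at 77, 64 and 81 in hlOSM. All 3 libraries in mOSM lay above the highest in PBS, whereas the lowest in hlOSM equalled it and the mLIF libraries overlapped PBS. Means were 55.0 ± 7.81 (SD, n = 3) in PBS, 81.0 ± 8.0 in mOSM and 74.0 ± 8.89 in hlOSM. Ccl7 rose with mOSM by a log2 change of 0.55 (SE 0.13, 95% interval 0.28 to 0.82, adjusted p = 0.00225), or 1.47-fold. With hlOSM it rose by 0.42 (SE 0.13, 95% interval 0.15 to 0.69, adjusted p = 0.0135), or 1.34-fold. The call with hlOSM was lost without PBS replicate 2 (0.36, adjusted p = 0.0616), without PBS replicate 3 (0.37, adjusted p = 0.0519) or without hlOSM replicate 3 (0.36, adjusted p = 0.0662). With mLIF the log2 change was 0.17 and was not called, and the log2 difference of mOSM from mLIF was 0.39 (0.12 to 0.66, adjusted p = 0.0549). That difference was past the threshold without PBS replicate 1 (adjusted p = 0.0435), PBS replicate 3 (adjusted p = 0.048), mOSM replicate 1 (adjusted p = 0.0495) or hlOSM replicate 2 (adjusted p = 0.0487), and with only the libraries compared (adjusted p = 0.0367).

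Ccl2 and Ccl7 lie side by side on chromosome 11 with Ccl11, Ccl12 and Ccl8, 5 genes on the plus strand within 81.2 kb. Ccl11, which encodes eotaxin, a ligand of Ccr3 on eosinophils, stood at 8, 6 and 4 in PBS, at 5, 7 and 9 in mLIF, at 52, 58 and 59 in mOSM and at 62, 48 and 69 in hlOSM. Every library with mOSM or hlOSM lay far above every library in PBS or mLIF. Its log2 change was 3.07 with mOSM (SE 0.24, adjusted p = 1.8e-09) and 3.14 with hlOSM (SE 0.24, adjusted p = 7.42e-10), and with mLIF it was 0.20 (-0.29 to 0.69, adjusted p = 0.632). Ccl8, another CC ligand of monocytes, stood at 0, 1 and 2 in PBS, at 5, 3 and 2 in mLIF, at 38, 41 and 25 in mOSM and at 33, 23 and 35 in hlOSM. The libraries again fell into a low set with PBS or mLIF and a high set with mOSM or hlOSM, and both genes passed the filter only through the high set. For Ccl8 the log2 change was 4.26 with mOSM (SE 0.37, adjusted p = 1.21e-08) and 4.09 with hlOSM (SE 0.37, adjusted p = 1.43e-08), values that depend on the pseudocount and fell to 2.71 and 2.55 with 5 added in place of 1. Without the filter the adjusted p with mOSM and hlOSM was 4.52e-09 and 1.95e-09 for Ccl11, and 2.88e-08 and 3.7e-08 for Ccl8. The rise of Ccl8 with mLIF (1.20, adjusted p = 0.0441) was lost with replicate number as a block (adjusted p = 0.0966), with 5 added (0.47), without the filter, with quantile normalization and in 9 of the 12 fits that left out 1 library. Ccl12 had values of 0 or 1 in all 12 libraries. Within this cluster the log2 changes with mOSM thus ran from 0.03 for Ccl2 to 4.26 for Ccl8.

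**Figure D2:**
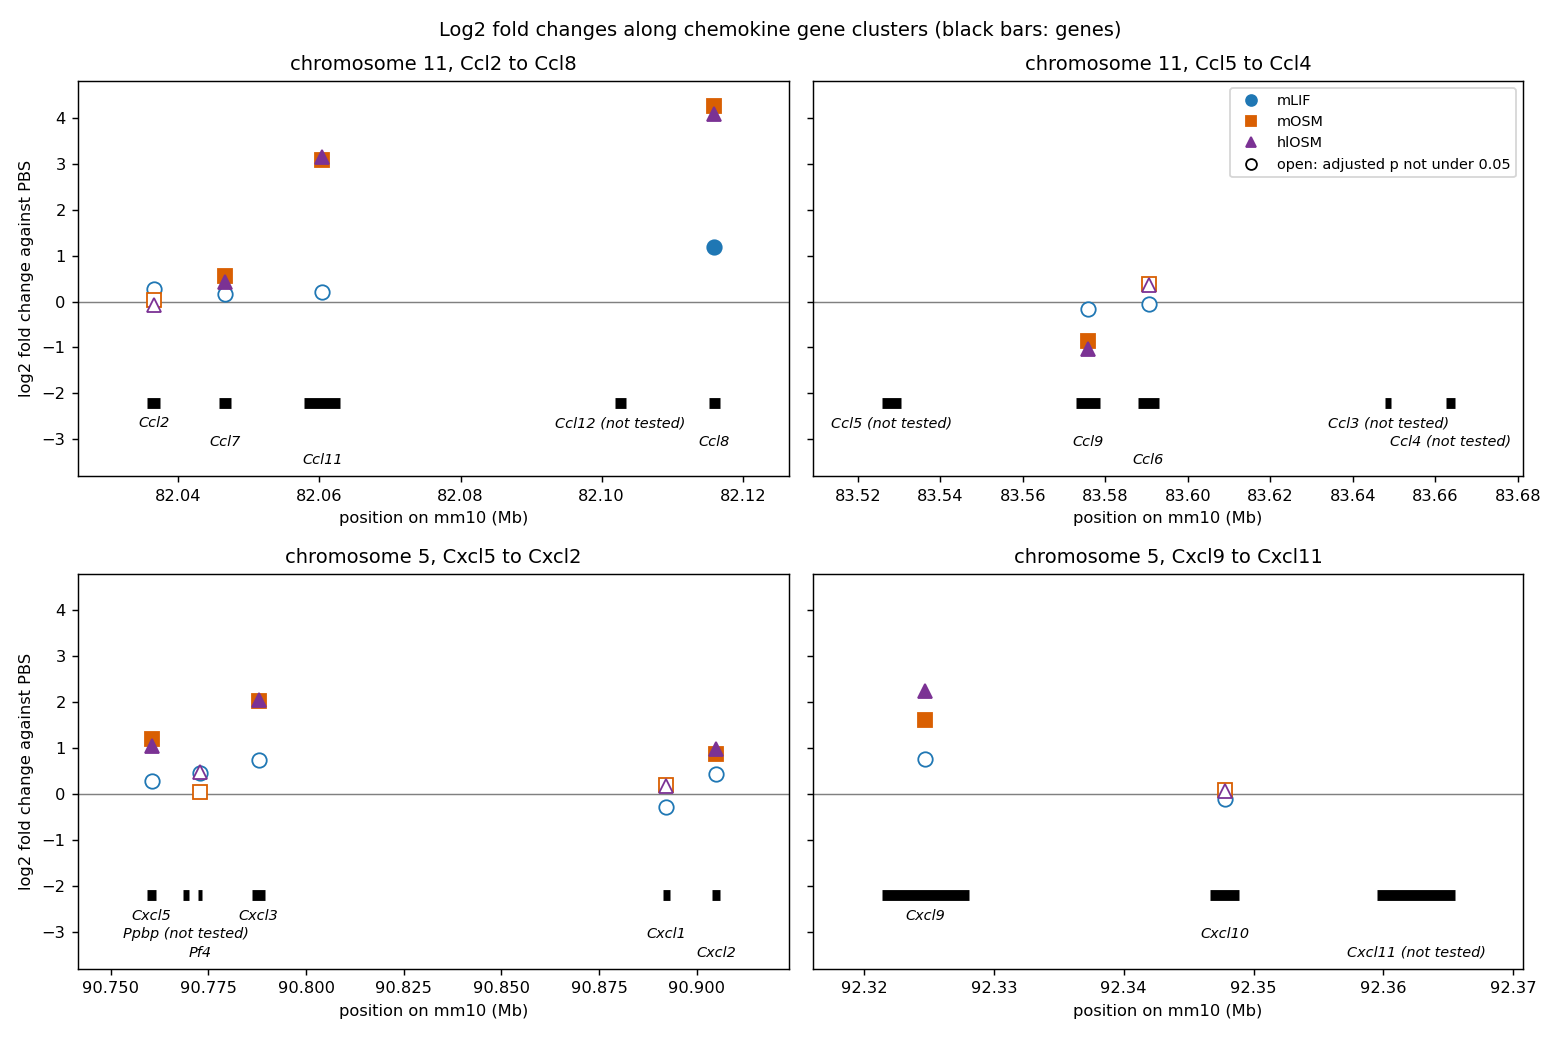
Log2 change against PBS (vertical axis) by position in mm10 in Mb for the chemokine genes of 4 clusters on chromosomes 5 and 11, with a circle for mLIF, a square for mOSM and a triangle for hlOSM, open where the adjusted p was not under 0.05, and black bars for the genes. In the cluster of Ccl2 to Ccl8, the log2 changes with mOSM run from 0.03 for Ccl2 to 4.26 for Ccl8.

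In another group of CC genes on chromosome 11, from Ccl5 to Ccl4 over 139 kb, Ccl9 and Ccl6 were tested. Ccl9 stood at 27, 38 and 51 in PBS, at 23, 34 and 48 in mLIF, at 28, 18 and 16 in mOSM and at 24, 18 and 13 in hlOSM. All hlOSM libraries lay below the lowest in PBS, and in mOSM 2 of 3 did. It fell with hlOSM (log2 -1.03, adjusted p = 0.00457) and with mOSM (-0.87, adjusted p = 0.0178), the second of which was lost without PBS replicate 3 (-0.65, adjusted p = 0.11), mOSM replicate 2 (-0.79, adjusted p = 0.0599) or mOSM replicate 3 (-0.71, adjusted p = 0.0818). Ccl6, its neighbour, stood at 29, 31 and 32 in PBS and at 38, 47 and 37 in mOSM, and its log2 change of 0.39 with mOSM was not called (0.07 to 0.71, adjusted p = 0.06).

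Cxcl1 (ENSMUSG00000029380, chromosome 5, 90891241 to 90893115) encodes a CXC ligand that draws neutrophils through Cxcr2. It stood at 133, 114 and 115 in PBS, at 94, 116 and 90 in mLIF, at 131, 133 and 153 in mOSM and at 133, 124 and 155 in hlOSM. Each cytokine's libraries overlapped those in PBS, whereas the mLIF libraries all lay below the mOSM and the hlOSM libraries. Means were 137 ± 15.9 (SD, n = 3) in hlOSM, 139 ± 12.2 in mOSM, 100 ± 14.0 in mLIF and 121 ± 10.7 in PBS. Against PBS its log2 change was -0.27 after mLIF (95% interval -0.50 to -0.05, adjusted p = 0.11), 0.20 after mOSM (-0.02 to 0.43, adjusted p = 0.163) and 0.18 after hlOSM (-0.04 to 0.41, adjusted p = 0.193). Without mLIF replicate 2 the difference of mLIF from PBS was past the threshold (-0.38, adjusted p = 0.0438). Cxcl1 was higher in mOSM than in mLIF by 0.48 (SE 0.11, adjusted p = 0.0042), or 1.39-fold, and higher in hlOSM than in mLIF by 0.46 (SE 0.11, adjusted p = 0.00471), or 1.37-fold.

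Cxcl1 lies with Cxcl5, Ppbp, Pf4, Cxcl3 and Cxcl2 in 147 kb of chromosome 5. Cxcl5, Cxcl3 and Cxcl2 also encode ligands of Cxcr2. Cxcl5 stood at 91, 72 and 67 in PBS, at 85, 112 and 84 in mLIF, at 160, 176 and 190 in mOSM and at 153, 132 and 197 in hlOSM. Cxcl3 stood at 16, 8 and 7 in PBS, at 12, 19 and 21 in mLIF, at 35, 51 and 44 in mOSM and at 43, 38 and 49 in hlOSM. For both genes all libraries with mOSM or hlOSM lay above all with PBS or mLIF. Cxcl5 rose by 1.19 with mOSM (SE 0.14, adjusted p = 5.55e-07) and by 1.05 with hlOSM (adjusted p = 2.38e-06). Cxcl3 rose by 2.03 with mOSM (SE 0.25, adjusted p = 1.72e-06) and by 2.04 with hlOSM (adjusted p = 1.22e-06). Cxcl2 stood at 22, 15 and 9 in PBS and at 30, 27 and 32 in hlOSM with no overlap, and rose by 0.99 with hlOSM (adjusted p = 0.00365). Its rise with mOSM (0.88, adjusted p = 0.0101) was lost without PBS replicate 3 (0.57, adjusted p = 0.0858). Pf4, platelet factor 4, stood between 6 and 22 in the 12 libraries and was not called in any comparison with PBS, and Ppbp was at 6 or less in every library.

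Cxcl9 (ENSMUSG00000029417, chromosome 5, 92321347 to 92328079, minus strand) encodes an interferon-induced ligand of Cxcr3 on T cells. It stood at 1, 2 and 3 normalized counts in PBS, at 4, 5 and 3 in mLIF, at 12, 5 and 8 in mOSM and at 12, 14 and 12 in hlOSM. The hlOSM libraries lay above all PBS and mLIF libraries, and the mOSM libraries lay above PBS but met mLIF at 5. Means were 12.7 ± 1.15 (SD, n = 3) in hlOSM, 8.33 ± 3.51 in mOSM, 4.0 ± 1.0 in mLIF and 2.00 ± 1.00 in PBS. Cxcl9 rose with hlOSM by a log2 change of 2.24 (SE 0.38, 95% interval 1.45 to 3.03, adjusted p = 6.71e-05), or 4.73-fold. With mOSM it rose by 1.62 (SE 0.38, 95% interval 0.84 to 2.41, adjusted p = 0.00217), or 3.08-fold. At levels this low the size depends on the pseudocount, and with 5 added in place of 1 the log2 changes were 1.34 and 0.91, both still called. Because Cxcl9 passed the filter only through hlOSM, the fit without a filter was read as well, and there the adjusted p was 1.28e-04 with hlOSM and 0.00395 with mOSM. Cxcl9 was also higher in hlOSM than in mLIF, by 1.47 (SE 0.38, adjusted p = 0.00918), or by 0.98 with 5 added. With mLIF the log2 change was 0.77 (-0.01 to 1.56, adjusted p = 0.203), and hlOSM differed from mOSM by 0.62 (-0.17 to 1.40, adjusted p = 0.748).

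Cxcl10 (ENSMUSG00000034855, chromosome 5, 92346638 to 92348889, minus strand), which encodes another interferon-induced ligand of Cxcr3, lies next to Cxcl9 and Cxcl11 within 44.1 kb. It stood at 15, 12 and 12 in PBS, at 15, 16 and 7 in mLIF, at 12, 13 and 17 in mOSM and at 11, 11 and 21 in hlOSM. The libraries of all 4 conditions overlapped, with the lowest value in mLIF replicate 3 and the highest in hlOSM replicate 3. Its log2 change was -0.10 after mLIF (95% interval -0.73 to 0.52, adjusted p = 0.866), 0.09 after mOSM (-0.53 to 0.71, adjusted p = 0.847) and 0.08 after hlOSM (-0.55 to 0.70, adjusted p = 0.864). The sign with mLIF rests on mLIF replicate 3 at 7, since without it the log2 change was 0.24. Each of the 95% intervals holds both falls and rises, so these libraries do not show whether Cxcl10 changed. Exons of Art3 on the other strand cover 5.9% of the exonic bases of Cxcl10, and whether reads were counted by strand is not given in the sources used here. Cxcl9 and Cxcl10 thus had different values within the same cluster, and the difference between the genes was not tested.

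Cxcl12 (ENSMUSG00000061353, chromosome 6, 117168535 to 117181367) encodes a ligand that is made constitutively by stromal cells and binds both Cxcr4 and Ackr3. It stood at 388, 383 and 377 in PBS, at 414, 402 and 449 in mLIF, at 415, 423 and 439 in mOSM and at 395, 400 and 398 in hlOSM. Every library with a cytokine lay above every PBS library, by small margins with hlOSM. Means were 398 ± 2.52 (SD, n = 3) in hlOSM, 426 ± 12.2 in mOSM, 422 ± 24.4 in mLIF and 383 ± 5.51 in PBS. Cxcl12 rose with mOSM by a log2 change of 0.15 (SE 0.06, 95% interval 0.03 to 0.27, adjusted p = 0.0456), or 1.11-fold. This call lay at the edge of the threshold, and with replicate number as a block the adjusted p was 0.0941. It was lost in 10 of the 12 fits that left out 1 library, all but those without mLIF replicate 3 or hlOSM replicate 3, and over all alternatives the adjusted p ran from 0.0198 to 0.119. With mLIF the log2 change was 0.14 (0.02 to 0.26, adjusted p = 0.129) and with hlOSM it was 0.06 (-0.06 to 0.17, adjusted p = 0.474).

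Cxcl16 (ENSMUSG00000018920, chromosome 11, 70453983 to 70459984, minus strand) encodes a ligand of Cxcr6 that is held in the membrane and released by cleavage. It stood at 41, 45 and 35 in PBS, at 47, 55 and 60 in mLIF, at 37, 39 and 46 in mOSM and at 38, 27 and 31 in hlOSM. The mLIF libraries lay above all PBS libraries and above all mOSM and hlOSM libraries, whereas mOSM and hlOSM each overlapped PBS, hlOSM with replicate 1 alone. Means were 32.0 ± 5.57 (SD, n = 3) in hlOSM, 40.7 ± 4.73 in mOSM, 54.0 ± 6.56 in mLIF and 40.3 ± 5.03 in PBS. Cxcl16 was lower in hlOSM than in mLIF by a log2 difference of -0.74 (SE 0.16, 95% interval -1.07 to -0.42, adjusted p = 0.00185), or 1.67-fold. Against PBS its log2 change was 0.41 after mLIF (0.09 to 0.74, adjusted p = 0.0995), 0.01 after mOSM (-0.31 to 0.34, adjusted p = 0.96) and -0.33 after hlOSM (-0.66 to -0.004, adjusted p = 0.103). Without hlOSM replicate 1 the change with hlOSM was past the threshold (-0.46, adjusted p = 0.0423). Exons of Zmynd15 on the other strand cover 18.3% of the exonic bases of Cxcl16.

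Cx3cl1 (ENSMUSG00000031778, chromosome 8, 94772009 to 94782427) encodes fractalkine, a chemokine on a membrane-bound stalk that binds Cx3cr1 on monocytes and macrophages. It stood at 58, 62 and 45 in PBS, at 47, 60 and 55 in mLIF, at 33, 24 and 34 in mOSM and at 25, 25 and 30 in hlOSM. All 6 libraries with mOSM or hlOSM lay below all 6 with PBS or mLIF, which overlapped each other. Means were 26.7 ± 2.89 (SD, n = 3) in hlOSM, 30.3 ± 5.51 in mOSM, 54.0 ± 6.56 in mLIF and 55.0 ± 8.89 in PBS. Cx3cl1 fell with hlOSM by a log2 change of -1.01 (SE 0.17, 95% interval -1.35 to -0.66, adjusted p = 4.9e-05), or 2.01-fold. With mOSM its log2 change was -0.84 (SE 0.17, 95% interval -1.19 to -0.50, adjusted p = 0.000468), or 1.79-fold. With mLIF the log2 change was -0.02 (-0.37 to 0.33, adjusted p = 0.954). The log2 difference of Cx3cl1 from mLIF was -0.82 in mOSM (adjusted p = 0.00156) and -0.99 in hlOSM (adjusted p = 0.000177), so these differences between cytokines were themselves past the threshold. Between hlOSM and mOSM the difference was -0.17 (-0.51 to 0.18, adjusted p = 0.887).

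Fractalkine and Cxcl16 are cut from the membrane by Adam10 and Adam17. Adam10 stood at 393, 380 and 392 in PBS, at 413, 398 and 414 in mLIF, at 472, 462 and 457 in mOSM and at 424, 459 and 492 in hlOSM. Its libraries with mOSM or hlOSM all lay above PBS, and it rose by 0.26 with mOSM (adjusted p = 0.00204) and by 0.24 with hlOSM (adjusted p = 0.00312). Adam17 stood at 330, 354 and 309 in PBS and at 372, 322 and 387 in mOSM and was not called in any comparison with PBS. The receptor of fractalkine, Cx3cr1, stood between 8 and 24 in the 12 libraries, with log2 changes of 0.63 with mOSM (0.10 to 1.16, adjusted p = 0.0664) and 0.28 with hlOSM (-0.25 to 0.82, adjusted p = 0.409). Cxcr6, the receptor of Cxcl16, did not pass the filter and stood between 4 and 13.

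Cxcr4 (ENSMUSG00000045382, chromosome 1, 128588199 to 128592293, minus strand) encodes the signalling receptor of Cxcl12. It stood at 15, 14 and 15 normalized counts in PBS, at 13, 21 and 20 in mLIF, at 14, 11 and 7 in mOSM and at 3, 2 and 4 in hlOSM. The 3 libraries with hlOSM lay below all other libraries, and mLIF and mOSM each overlapped PBS. Means were 3.00 ± 1.00 (SD, n = 3) in hlOSM, 10.7 ± 3.51 in mOSM, 18 ± 4.36 in mLIF and 14.7 ± 0.577 in PBS. Cxcr4 fell with hlOSM by a log2 change of -2.0 (SE 0.30, 95% interval -2.63 to -1.37, adjusted p = 1.69e-05), or 4.0-fold. From mLIF to hlOSM the log2 difference was -2.25 (SE 0.30, 95% interval -2.88 to -1.62, adjusted p = 1.18e-05), or 4.76-fold. With 5 added in place of 1, these values were -1.30 and -1.51, both still called. No hlOSM library reached the filter value of 10, so Cxcr4 passed the filter only through the other conditions. Both calls also held without the filter. Over all alternatives that could test them, the adjusted p was at most 0.000225 against PBS and 0.000247 against mLIF. With mLIF the log2 change was 0.25 (-0.38 to 0.88, adjusted p = 0.643) and with mOSM it was -0.47 (-1.10 to 0.16, adjusted p = 0.254).

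Cxcr4 was the single member called between hlOSM and mOSM, lower in hlOSM with a log2 difference of -1.53 (SE 0.30, 95% interval -2.16 to -0.90, adjusted p = 0.0464), or 2.88-fold. In that comparison 0% of all genes tested were called higher, with 987 at an unadjusted p under 0.05 in either direction by limma, and 0.106% were called lower. These are 14 genes, beside 2 with the block, 17 without PBS replicate 3, 10 without hlOSM replicate 3 and 1 (without mOSM replicate 3) to 5 in each other fit that left out 1 library. The call of Cxcr4 was at the edge of the threshold. With replicate number as a block the adjusted p was 0.223, with 5 added it was 0.104 (-0.95), without the filter it was 0.111, with median-of-ratios rescaling it was 0.069, and over all alternatives it ran from 0.0394 to 0.29. It was lost in 10 of the 12 fits that left out 1 library, all but those without PBS replicate 3 or hlOSM replicate 3. The direction was the same in every alternative. The 3 libraries in hlOSM all lay below the 3 in mOSM, so leaving out 1 library could not have reversed it. The members' median log2 difference between hlOSM and mOSM was -0.124, beside -0.00577 over all genes tested, and 2 members stood at an unadjusted p under 0.05.

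Ackr3 (ENSMUSG00000044337, chromosome 1, 90203980 to 90216751) encodes an atypical receptor that takes up Cxcl12 without signalling through G proteins. It stood at 45, 39 and 91 in PBS, at 32, 39 and 38 in mLIF, at 63, 72 and 47 in mOSM and at 64, 53 and 41 in hlOSM. PBS replicate 3 stood apart at 91, above all 11 other libraries, and the mLIF libraries were the lowest as a group, with 1 at the level of PBS replicate 2. Means were 52.7 ± 11.5 (SD, n = 3) in hlOSM, 60.7 ± 12.7 in mOSM, 36.3 ± 3.79 in mLIF and 58.3 ± 28.4 in PBS. Its log2 change was -0.57 after mLIF (95% interval -1.04 to -0.10, adjusted p = 0.113), 0.14 after mOSM (-0.34 to 0.61, adjusted p = 0.693) and -0.07 after hlOSM (-0.54 to 0.41, adjusted p = 0.843). Without PBS replicate 3 the values with mOSM and hlOSM were 0.50 and 0.30, and without PBS replicate 2 they were -0.10 and -0.30, so their signs rest on single PBS libraries. The change with mLIF was past the threshold without PBS replicate 2 (-0.81, adjusted p = 0.0381).

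Ackr3 was higher in mOSM than in mLIF by 0.71 (SE 0.23, 95% interval 0.24 to 1.18, adjusted p = 0.0453), or 1.63-fold, and the libraries did not overlap. With replicate number as a block the adjusted p was 0.0663, and over all alternatives it ran from 0.00314 to 0.166. The call was lost without mLIF replicate 1 (0.62, adjusted p = 0.162), mLIF replicate 2 (0.76, adjusted p = 0.0767), mLIF replicate 3 (0.74, adjusted p = 0.0841), mOSM replicate 1 (0.67, adjusted p = 0.119) or mOSM replicate 2 (0.58, adjusted p = 0.166). It was also lost without the filter (adjusted p = 0.0683), with median-of-ratios rescaling (0.0602), with quantile normalization (0.0535) and with a robust fit (0.0858). The log2 difference of hlOSM from mLIF was 0.51 (0.03 to 0.98, adjusted p = 0.143), and it was past the threshold without PBS replicate 3 (adjusted p = 0.0389) and with only the libraries compared (adjusted p = 0.0365).

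Of the other receptors tested, Ccrl2, an atypical receptor that binds chemerin, stood at 34, 31 and 65 in PBS, at 25, 31 and 20 in mLIF, at 14, 18 and 13 in mOSM and at 12, 8 and 9 in hlOSM. All libraries with mOSM or hlOSM lay below all with PBS or mLIF, and PBS replicate 3 again held the highest value. Ccrl2 fell by a log2 change of -1.40 with mOSM (SE 0.25, adjusted p = 0.000193) and of -1.99 with hlOSM (adjusted p = 1.94e-06), and both calls held without PBS replicate 3. Ccr1, a receptor of CC ligands on monocytes, did not pass the filter and stood at 8 or less in every library, and Ccr9, Ackr1, Ackr2 and Ackr4 stood at 7 or less.

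Directly between the single-receptor cytokines, 2 members were called higher in mOSM than in mLIF (Cxcl1 and Ackr3), beside 6.05% of all genes, and 1 lower (Cx3cl1), beside 5.76%. The members' median log2 difference was 0.106, beside -0.00656 over all genes tested. Between hlOSM and mLIF, 2 members were higher in hlOSM (Cxcl1 and Cxcl9), beside 7.42% of all genes, and 3 lower (Cxcl16, Cx3cl1 and Cxcr4), beside 9.22%. The members' median log2 difference here was 0.0489, beside -0.00675 over all genes tested. These comparisons share the mLIF libraries. Over all genes the block gave 1161 and 1602 calls in these comparisons, beside 1557 and 2194 without it.

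Whether the response to hlOSM, which reaches both receptors, differed from the sum on the log2 scale of those to mLIF and mOSM was tested as the difference of hlOSM from mOSM minus that of mLIF from PBS. No member was called in this interaction by limma, with 3 at an unadjusted p under 0.05, beside 0.0152% of all genes called higher and 0.152% lower and 1521 genes at an unadjusted p under 0.05. The shares rest on 22 genes, a number that was 14 with the block and moved widely with single libraries: it was 154 without hlOSM replicate 3, 90 without PBS replicate 1, 12 without mLIF replicate 1 or mOSM replicate 2, 7 without hlOSM replicate 1, 6 without hlOSM replicate 2 and 5 without mLIF replicate 3. The members' median was -0.196, beside -0.00672 over all genes tested. For Cxcr4 the interaction was -1.78 (95% interval -2.67 to -0.89, adjusted p = 0.103), and without hlOSM replicate 3 it was -1.96 (adjusted p = 0.0322). For Cxcl16 it was -0.76 (-1.22 to -0.29, adjusted p = 0.166), where the mLIF libraries all lay above PBS and 2 of the 3 hlOSM libraries lay below all mOSM libraries. The interaction of Cxcl12, the third of these members, was -0.24 (-0.40 to -0.07, adjusted p = 0.242).

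**Figure D3:**
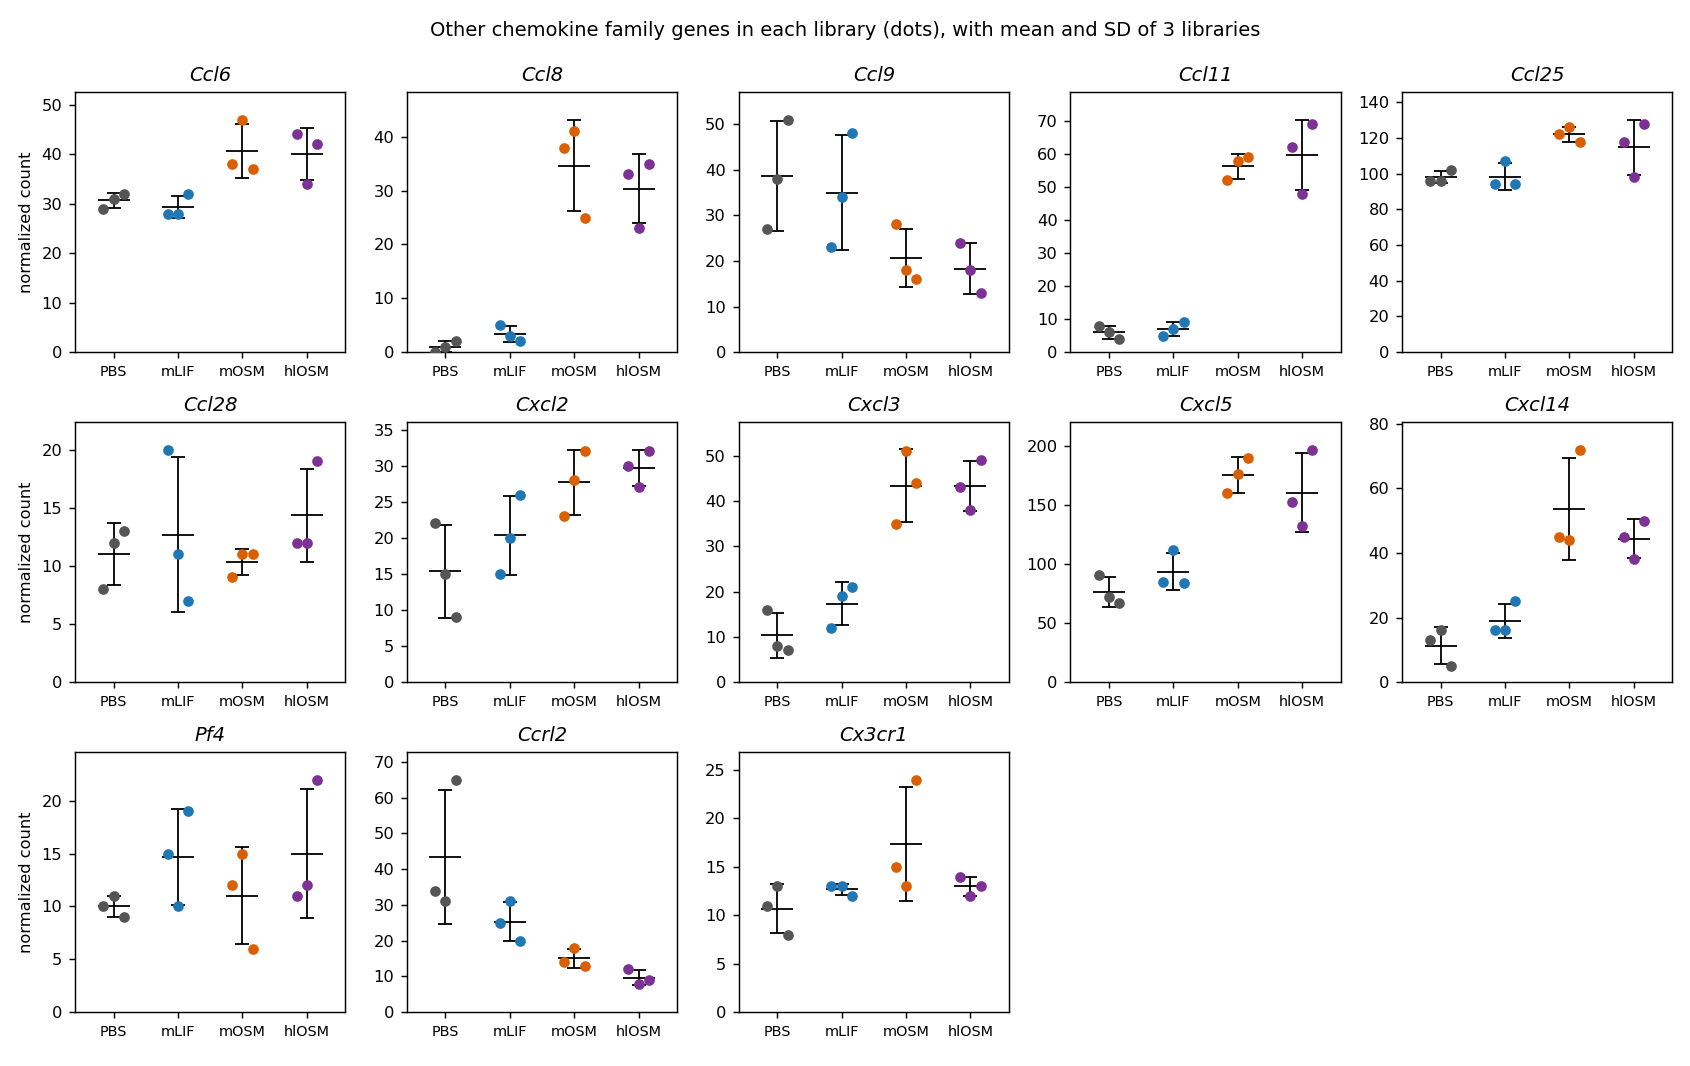
Normalized counts (vertical axis, from 0) of the 13 other chemokine ligands and receptors that passed the filter, 1 panel per gene, by condition, with dots for libraries, long lines for the mean and short-capped bars for the SD of 3 libraries. Ccl8 sits between 0 and 2 in PBS and between 25 and 41 in mOSM, and Ccrl2 between 31 and 65 in PBS and between 8 and 12 in hlOSM.

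Over the whole family, 41 mouse chemokine ligands were listed, the 8 ligands among the members included, of which 28 had values and 19 were tested. Of the 19, 1 was called higher and 0 lower with mLIF (Ccl8), 10 higher and 2 lower with mOSM, and 8 higher and 2 lower with hlOSM, or 0, 11 and 10 in either direction with replicate number as a block. Over all genes tested, 5.47%, 15.4% and 18.2% were called higher and 4.44%, 15.8% and 19.8% lower in the same order, and these shares also stand beside the counts of each list below. The median log2 change of the tested ligands was 0.203 after mLIF, 0.313 after mOSM and 0.365 after hlOSM. The ligands called higher with mOSM were Ccl7, Ccl8, Ccl11, Ccl25, Cxcl2, Cxcl3, Cxcl5, Cxcl9, Cxcl12 and Cxcl14, and with hlOSM the same list without Ccl25 and Cxcl12, while Cx3cl1 and Ccl9 were lower with both. Leaving out 1 library in turn gave 0 to 1 called ligands with mLIF, 9 to 12 with mOSM and also 9 to 12 with hlOSM. With mLIF the ligand called was Cxcl3 without PBS replicate 1 or mLIF replicate 1 and Cxcl14 without PBS replicate 2, both higher, and Cxcl1, lower, without mLIF replicate 2, in each case in place of Ccl8.

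Among these, Cxcl14, a ligand found in many epithelial and stromal tissues, stood at 13, 16 and 5 in PBS, at 16, 16 and 25 in mLIF, at 45, 44 and 72 in mOSM and at 45, 38 and 50 in hlOSM. The libraries with mOSM or hlOSM all lay above the others, and it rose by 2.24 with mOSM (SE 0.29, adjusted p = 2.7e-06) and by 2.00 with hlOSM (adjusted p = 9.05e-06). Ccl25, known for drawing T cells to the thymus and gut, stood at 96, 96 and 102 in PBS and at 122, 126 and 118 in mOSM. Its libraries did not overlap, and its rise with mOSM (0.31, adjusted p = 0.0191) was lost without PBS replicate 1 (0.30, adjusted p = 0.0538), PBS replicate 2 (0.30, adjusted p = 0.0555) or mOSM replicate 2 (0.29, adjusted p = 0.0655). Ccl28 stood between 7 and 20 and was not called in any comparison with PBS. Of the 9 ligands with values that did not pass the filter, the highest value was 6, and Ccl3, Ccl5, Ccl27a and Ppbp reached at least 3 in some library.

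The summed level of the ligands was 1109, 1058 and 1018 in PBS, 1082, 1190 and 1206 in mLIF, 1361, 1442 and 1474 in mOSM and 1353, 1218 and 1473 in hlOSM, and Cxcl12 alone gave 32.6% of it over all libraries. Sums with mOSM and hlOSM all lay above those with PBS and mLIF. Of 24 receptors listed, 14 had values and 4 were tested (Cxcr4, Ackr3, Ccrl2 and Cx3cr1). None was called with mLIF by limma (2 at an unadjusted p under 0.05), 0 higher and 1 lower with mOSM, and 0 higher and 2 lower with hlOSM, where the median log2 change was -1.03. Without PBS replicate 2 or mOSM replicate 2 Cx3cr1 was called higher with mOSM as well, and without PBS replicate 2 Ackr3 lower with mLIF. The summed level of the receptors was 124, 116 and 200 in PBS, 112, 121 and 110 in mLIF, 126, 142 and 105 in mOSM and 112, 96 and 103 in hlOSM, with 42.5% from Ackr3, and PBS replicate 3 was the highest.

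Promoter sequences from RefSeq (GRCm38.p6, 250 bases before to 50 after the start of the gene) matched 7 of the 10 members, without Ccl2, Ccl7 and Cxcl16. They were searched on both strands for 3 motifs. TTCNNNGAA, the letters bound by STAT factors, was in none of the 7 windows and is in 8.3% of all 32851 promoters of that length. The letters bound by NF-kB, GGGA with any 4 bases and then CC, are in 20.7% of all promoters. Among the 7 windows they were in those of Cxcl1, Cxcl9 and Cxcl10. In Cxcl1 there were 3 matches, starting 90, 71 and 70 bases before the start. The last 2 overlapped, and the match at 70 was on the reverse strand. The window of Cxcl9 had 1 match at 130, on the reverse strand, and that of Cxcl10 had 2, at 159 and 103. The letters found in elements that respond to interferon, GAAA with any 2 bases and then GAAA, was in that of Cxcl10 (213 bases before the start) and is in 3.44% of all promoters. A match describes letters in a window and is neither a bound site nor a cause, and no match says only that these letters are not in the window. The 3 windows with a match are shown because they belong to the CXC ligand genes of chromosome 5, of which Cxcl9 rose with mOSM and hlOSM and Cxcl10 was not called. They run 5′ to 3′ along the strand of the gene, at chr5:90890995-90891294 on the plus strand for Cxcl1, chr5:92328030-92328329 on the minus strand for Cxcl9 and chr5:92348840-92349139 on the minus strand for Cxcl10, with the matches in capitals.
Cxcl1 promoter: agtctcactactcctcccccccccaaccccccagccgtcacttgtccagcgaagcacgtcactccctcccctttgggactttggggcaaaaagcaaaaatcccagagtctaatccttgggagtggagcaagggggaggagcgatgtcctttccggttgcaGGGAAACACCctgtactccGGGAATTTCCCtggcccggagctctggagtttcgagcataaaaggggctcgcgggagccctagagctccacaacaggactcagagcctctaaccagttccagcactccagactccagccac
Cxcl9 promoter: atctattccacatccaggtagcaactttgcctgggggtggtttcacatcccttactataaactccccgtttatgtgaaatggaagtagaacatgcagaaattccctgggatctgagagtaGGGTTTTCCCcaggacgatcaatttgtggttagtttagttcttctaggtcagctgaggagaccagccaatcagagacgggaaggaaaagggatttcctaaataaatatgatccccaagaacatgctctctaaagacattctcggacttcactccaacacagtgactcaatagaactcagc
Cxcl10 promoter: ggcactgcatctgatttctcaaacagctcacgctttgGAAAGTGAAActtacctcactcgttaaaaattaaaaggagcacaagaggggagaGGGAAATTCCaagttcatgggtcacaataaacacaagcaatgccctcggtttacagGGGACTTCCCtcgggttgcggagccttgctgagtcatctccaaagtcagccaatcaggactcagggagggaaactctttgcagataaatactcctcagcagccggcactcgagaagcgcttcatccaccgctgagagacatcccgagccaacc

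Chemokines are held on cell surfaces by heparan sulfate, and of 10 genes for its core proteins and synthesis enzymes, 1 was higher and 0 lower with mLIF, 6 higher and 1 lower with mOSM, and 5 higher and 1 lower with hlOSM, or 0, 5 and 6 in either direction with the block. The call with mLIF (Ext2, 0.27, adjusted p = 0.0388) was also lost without PBS replicate 1 (adjusted p = 0.101), PBS replicate 3 (0.154), mLIF replicate 1 (0.0539), mLIF replicate 2 (0.0738) or mLIF replicate 3 (0.191). Of all genes tested, 5.47%, 15.4% and 18.2% were higher and 4.44%, 15.8% and 19.8% lower. The list's median log2 change was 0.0431, 0.225 and 0.21 in that order. Sdc1, syndecan 1, stood at 79, 66 and 86 in PBS, at 84, 100 and 90 in mLIF, at 191, 209 and 202 in mOSM and at 200, 184 and 184 in hlOSM. Every library with mOSM or hlOSM lay above the others, and it rose by 1.38 with mOSM (SE 0.10, adjusted p = 4.22e-10) and by 1.29 with hlOSM (adjusted p = 7.08e-10). Sdc4 rose by 0.49 and 0.47, the sulfating enzyme gene Ndst1 by 0.49 and 0.56, and Gpc1, the most abundant of the list, fell by 0.24 and 0.26 with mOSM and hlOSM.

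Of 10 proteases and regulators that release or trim chemokines, 9 were tested, and 0 were called with mLIF by limma (1 at an unadjusted p under 0.05), 2 higher and 2 lower with mOSM, and 2 higher and 3 lower with hlOSM. The median log2 change was -0.123, -0.0367 and -0.226. Dpp4, a peptidase that trims Cxcl12, Cxcl9 and Cxcl10, stood at 13, 14 and 8 in PBS, at 6, 11 and 16 in mLIF, at 2, 3 and 3 in mOSM and at 6, 3 and 3 in hlOSM. Its libraries with mOSM or hlOSM lay below all in PBS, and it fell by a log2 change of -1.77 with mOSM (SE 0.38, adjusted p = 0.00114) and of -1.36 with hlOSM (adjusted p = 0.00749). It passed the filter only through PBS and mLIF libraries, and without the filter these adjusted p were 0.00224 and 0.0135. Mmp2 fell by 0.53 and 0.75, and Anpep rose by 0.68 and 0.58 with mOSM and hlOSM.

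Of 16 genes that relay or end receptor signals, 14 were tested, with 1 higher and 0 lower with mLIF, 4 higher and 1 lower with mOSM, and 5 higher and 0 lower with hlOSM, or 1, 4 and 5 in either direction with the block. With mLIF the count was 2 without PBS replicate 2, where Ptk2b was called too, and without mOSM replicate 3, hlOSM replicate 2 or hlOSM replicate 3, where Gnai3 was. Their median log2 change was 0.025, 0.109 and 0.171, and Gnb1 was the most abundant. Ptk2b, a kinase activated downstream of chemokine receptors, stood at 31, 35 and 19 in PBS, at 34, 34 and 50 in mLIF, at 88, 74 and 98 in mOSM and at 102, 106 and 116 in hlOSM. The libraries with mOSM or hlOSM lay above all others, and it rose by 1.61 with mOSM (adjusted p = 4.45e-07) and by 1.94 with hlOSM (adjusted p = 2.32e-08). Gnai3, a Gi subunit, rose by 0.48 and 0.45, and Rgs16, which ends Gi signals, by 0.78 and 0.51 with mOSM and hlOSM. Grk3, a receptor kinase, was the gene called with mLIF, at 130, 130 and 106 in PBS and 181, 170 and 194 in mLIF (0.57, adjusted p = 0.000576).

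Of 8 cytokine genes known to induce chemokines, 5 had values and 1, Il6, was tested. It stood at 8, 15 and 11 in PBS, at 11, 16 and 11 in mLIF, at 111, 76 and 108 in mOSM and at 110, 58 and 92 in hlOSM. The libraries with mOSM or hlOSM all lay far above the others, and Il6 rose by 3.03 with mOSM (SE 0.23, adjusted p = 1.72e-09) and by 2.82 with hlOSM (adjusted p = 3.13e-09).

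Of 16 transcription factors and regulators known upstream of chemokine genes, 2 were called higher (Cebpd and Stat3) and 0 lower with mLIF, 4 higher and 3 lower with mOSM, and 3 higher and 5 lower with hlOSM. The block gave 3 higher and 2 lower with mOSM, and 3 higher and 3 lower with hlOSM. Without PBS replicate 3 these counts were 2 and 1 after mOSM, and after hlOSM 2 and 2, without mOSM replicate 2 they were 2 and 2 with mOSM, and without hlOSM replicate 3 they were 2 and 2 with hlOSM. In the same order the median log2 change was -0.0211, -0.0208 and -0.0534. Cebpd stood at 90, 85 and 50 in PBS, at 112, 138 and 152 in mLIF, at 188, 182 and 231 in mOSM and at 191, 168 and 232 in hlOSM. PBS libraries were the lowest and mLIF libraries lay between them and the rest, and it rose by 0.86 with mLIF (adjusted p = 0.00192), by 1.44 with mOSM (adjusted p = 4.76e-07) and by 1.41 with hlOSM (adjusted p = 4.79e-07). Stat3, the most abundant of the list, rose by 0.35 with mOSM (adjusted p = 3.75e-05) and by 0.35 with hlOSM (adjusted p = 2.23e-05). Its rise with mLIF (0.19, adjusted p = 0.028) was lost with replicate number as a block (adjusted p = 0.0528) and without PBS replicate 2 (adjusted p = 0.0647), PBS replicate 3 (0.149), mLIF replicate 1 (0.0682), mLIF replicate 2 (0.0634) or mLIF replicate 3 (0.122). Irf9, known for the interferon response, was not called in any comparison with PBS, and Irf7 fell with mOSM (-0.98, adjusted p = 0.00218). Its fall with hlOSM (-0.62, adjusted p = 0.0379) was lost with the block (adjusted p = 0.065), without the filter (0.0592), with quantile normalization (0.0534) and without PBS replicate 2 (0.176), PBS replicate 3 (0.115), hlOSM replicate 2 (0.0991) or hlOSM replicate 3 (0.127). Nfkb2 (-0.35, adjusted p = 0.000512) and Nfkbia (-0.35, adjusted p = 0.00343) fell with hlOSM under every alternative. Their falls with mOSM (-0.24 and -0.27) were each lost under some. Relb and Irf1 were lower with hlOSM, Nfkbiz was higher with mOSM and hlOSM, and Cebpb was higher with mOSM. Each of these calls was also lost under some alternative. Nfkb1, Rela and Rel were not called in any comparison with PBS.

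Of 5 factors that degrade mRNA of chemokines and cytokines, 1 was called higher after mLIF, 3 after mOSM and 3 after hlOSM (2 with the block), and 0 lower. Medians of the log2 change were 0.0738, 0.333 and 0.271, and Zc3h12c was the most abundant. Zfp36 stood at 129, 119 and 102 in PBS, at 179, 160 and 181 in mLIF, at 197, 275 and 210 in mOSM and at 213, 182 and 280 in hlOSM. All cytokine libraries lay above PBS, and it rose by 0.57 with mLIF (adjusted p = 0.00713), by 0.95 with mOSM (adjusted p = 6.02e-06) and by 0.93 with hlOSM (adjusted p = 6.1e-06). Zc3h12a rose by 0.69 with mOSM (adjusted p = 0.00102) and by 0.79 with hlOSM (adjusted p = 0.000196).

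Chemokines are made by several cell types of the heart, so markers were read for each. All 10 cardiomyocyte markers had values in every library, with a summed level of 53063, 52503 and 54736 in PBS, 48201, 45981 and 45926 in mLIF, 38562, 37776 and 42362 in mOSM and 38595, 41278 and 40249 in hlOSM, of which Ttn gave 60.2%. PBS sums were the highest and those with mOSM and hlOSM the lowest, and 6, 7 and 7 of the 10 fell with mLIF, mOSM and hlOSM, 0 rose, or 4, 7 and 7 with the block. The 6 with mLIF became 0 without mLIF replicate 3, 1 without PBS replicate 3, 2 without mLIF replicate 2 and 3 without PBS replicate 1. For the list the median log2 change was -0.212, -0.283 and -0.306. Tnnt2 fell by 0.49 with mOSM (adjusted p = 4.02e-06) and by 0.56 with hlOSM (adjusted p = 5.86e-07). Quantile normalization gives a gene that keeps its rank in each library the same value, and the log2 change of Ttn was 0 there. With that normalization 2, 4 and 5 of the markers fell, and 1 (Atp2a2) rose with hlOSM.

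Of the 10 endothelial markers, 0 rose and 1 fell with mLIF (Pecam1, lost without mLIF replicate 3 at an adjusted p of 0.0513), 8 rose with mOSM and 8 with hlOSM (7 with the block), and 0 fell, with a median log2 change of 0.0615, 0.41 and 0.461. Their summed level was 1638, 1631 and 1560 in PBS, 1635, 1608 and 1675 in mLIF, 1980, 2165 and 2308 in mOSM and 2217, 2046 and 2216 in hlOSM, and Kdr gave 22.3% of it. All sums with mOSM and hlOSM lay above those with PBS and mLIF. Cdh5 rose by 0.65 with mOSM (adjusted p = 2.52e-07), and Erg by 0.92 with hlOSM (adjusted p = 2.62e-05).

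Of the 7 mural cell markers, 6 were tested, and 0 were called with mLIF by limma (3 at an unadjusted p under 0.05), while 5 fell with mOSM and 6 with hlOSM. The median log2 change was -0.218, -0.651 and -0.779. The summed level was 933, 975 and 1129 in PBS, 903, 870 and 900 in mLIF, 722, 658 and 702 in mOSM and 626, 643 and 620 in hlOSM, with 41.7% from Cspg4, and sums with hlOSM were the lowest. Acta2 fell by 1.43 with mOSM (adjusted p = 2.07e-08) and by 1.45 with hlOSM (adjusted p = 1.1e-08). Higd1b was at 0 in 8 of the 12 libraries.

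Of the 10 fibroblast markers, 0 rose and 1 fell with mLIF, 2 rose and 4 fell with mOSM, and 3 rose and 6 fell with hlOSM. With the block the calls in either direction numbered 0, 6 and 8, without Col1a2 with mLIF (-0.27, adjusted p = 0.0469, 0.0755 with the block) and Lum with hlOSM (0.37, adjusted p = 0.0442, 0.0748 with the block). The call of Col1a2 was also lost without PBS replicate 3 (-0.15), hlOSM replicate 2 or any 1 of the mLIF libraries, and that of Lum without PBS replicate 2, PBS replicate 3, mOSM replicate 1, hlOSM replicate 1 or hlOSM replicate 3 (0.26). Their median log2 change was -0.0859, -0.342 and -0.382. The summed level was 2340, 2325 and 2557 in PBS, 2225, 2290 and 2145 in mLIF, 2473, 2477 and 2900 in mOSM and 2514, 2326 and 2562 in hlOSM, with 25.0% from Col3a1, and the sums of PBS and each cytokine other than mLIF overlapped. Col3a1 rose by 1.07 with mOSM and 1.04 with hlOSM, whereas Col1a2 fell by 0.88 and 0.98.

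Of the 10 macrophage markers, 7 were tested, with 1 higher and 0 lower with mLIF, 1 higher and 1 lower with mOSM, and 1 higher and 2 lower with hlOSM. In the same order the median log2 change was -0.196, -0.0522 and -0.274. The summed level was 371, 383 and 412 in PBS, 361, 352 and 386 in mLIF, 404, 451 and 420 in mOSM and 424, 377 and 445 in hlOSM, with 39.7% from Lyz2, and the sums with each cytokine overlapped those in PBS. Cd68 rose by 1.22 with mOSM (adjusted p = 3.82e-06) and by 1.28 with hlOSM (adjusted p = 1.49e-06), and Fcgr1 was at 0 in 3 libraries. The rise of Cd68 with mLIF (0.61, adjusted p = 0.0192) was lost without PBS replicate 3 (0.41, adjusted p = 0.126), mLIF replicate 1 (adjusted p = 0.0693) or mLIF replicate 3 (adjusted p = 0.0953). The markers called lower were Itgam with mOSM (-1.13, adjusted p = 0.0324) and Lyz2 (-0.27, adjusted p = 0.0163) and Mrc1 (-0.36, adjusted p = 0.0482) with hlOSM. With the block Itgam (adjusted p = 0.0622) and Mrc1 (0.0988) were not called. Without PBS replicate 3 none of the 3 was called (adjusted p = 0.236 for Itgam, 0.0618 for Lyz2 and 0.271 for Mrc1), and Lyz2 and Mrc1 were both lost without hlOSM replicate 2 (0.059 and 0.133) or hlOSM replicate 3 (0.0771 and 0.12). Itgam was also lost without the filter (0.0566), mOSM replicate 2 (0.128) or mOSM replicate 3 (0.117), Lyz2 without PBS replicate 2 (0.0559), and Mrc1 in 8 of the 12 fits that left out 1 library. Of 7 neutrophil markers 1, Csf3r, had values, at 3, 1 and 2 in PBS, at 1, 1 and 0 in mLIF, at 1, 2 and 4 in mOSM and at 0, 1 and 0 in hlOSM. Of 6 lymphocyte markers 1, Cd79a, had values, at 4, 2 and 1 in PBS, at 2, 2 and 1 in mLIF, at 3, 2 and 1 in mOSM and at 0, 1 and 1 in hlOSM. The other 6 neutrophil and 5 lymphocyte markers are not in the deposited table and were not analysed. The cardiomyocyte, endothelial and mural marker sums moved with the same conditions as several chemokine values, and their part in the results was not tested.

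The genes with the most similar pattern over the 12 libraries, by Pearson's r of log2 values among genes with a mean of at least 50, are given as a description, since the 12 libraries form 4 conditions. For Cx3cl1 these were Trib2 (r = 0.967) and Tbc1d17 (0.963), for Ccl7 Plekho2 (0.961) and Atxn2l (0.948), and for Cxcl9 Cyb561 (0.96) and Thap2 (0.958). For Cxcr4 Arhgef19 (0.914) is given, for Cxcl1 Igfbp4 (0.927) and Gpm6b (0.914), and for Ackr3 Abhd18 (0.916) and Ahdc1 (0.903). For Ccl2 they were Zswim4 (0.908) and Rpap3 (0.876), for Cxcl12 Gm45053 (0.889) and Atf3 (0.876), for Cxcl16 Pml (0.861) and Kif20a (0.84), and for Cxcl10 Rnf220 (0.851) and Tle4 (0.822). Each of these values is the highest or next highest of many genes searched.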

How the data were processed

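RNA from 12 libraries of mouse cardiomyocytes was sequenced. Per the submitters' notes and methods, the authors trimmed reads with Trimmomatic, aligned them to mm10 with STAR 2.7.7a and counted them with featureCounts 1.6.5. The deposited values are a score: counts normalized by a step the sources used here do not name and rounded to whole numbers, from which the depth of each library cannot be read. Exonic lengths came from GENCODE M21 and were found for 22876 genes.

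Values were analysed in R 4.3.3 with limma 3.58.1 (linear model of log2 of the value plus a pseudocount of 1, eBayes with trend, two-sided tests, Benjamini-Hochberg adjustment, threshold 0.05, 95% intervals), on 13184 of 22915 genes with at least 10 in at least 3 libraries. Tables and figures used Python 3.11.15, pandas 2.3.3 and matplotlib 3.10.9. The code was tested on simulated data. The members and lists were chosen with earlier results of these data known. Named genes were all members, the other chemokine genes that passed the filter or reached 3 in some library, the most abundant and up to 4 genes with the smallest adjusted p of each other list, and the 2 nearest patterns of each member. Of these, some are given by count alone or left out. Each value was recomputed with 0.1 or 5 added, without a filter, with a filter at 50, with median-of-ratios rescaling, with quantile normalization, with a robust fit, with replicate number as a block, on only the libraries compared, at a threshold of 0.01, and with each library left out in turn.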

Additional observations from a re-analysis of the deposited data

How the results depend on the processing

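Of 1498 member values under 22 alternatives, 1434 kept their side of the threshold and their direction, apart from 28 uncalled values among them whose sign changed within their standard error, 44 were no longer called, 13 were newly called and 7 reversed. Of the 17 member calls, 13 held under every alternative that could test them, other than the stricter threshold; the exceptions were Cxcl12 with mOSM, Ccl7 with hlOSM, Ackr3 in mOSM against mLIF and Cxcr4 in hlOSM against mOSM. The number of members called with mOSM against PBS was 2 with only the libraries compared, where Cxcl9 did not pass the filter and Cxcl12 was not called. It was 2 in hlOSM against PBS and 2 in hlOSM against mLIF with the filter at 50, where fewer members were tested. It was 0 in hlOSM against mOSM with the filter at 50 or only the libraries compared, where Cxcr4 did not pass the filter, and at an adjusted p under 0.01, which its adjusted p did not meet. It was also 0 there with a pseudocount of 5, no filter, median-of-ratios rescaling or the replicate block; the cause was not tested.

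Leaving out 1 library in turn, the number of members called ranged from 0 to 1 in mLIF against PBS, 3 to 4 in mOSM against PBS, 3 to 5 in hlOSM against PBS, 2 to 4 in mOSM against mLIF, 5 to 6 in hlOSM against mLIF, 0 to 1 in hlOSM against mOSM and 0 to 1 in the interaction. Log2 values that reversed ranged from -0.30 to 0.24 for Cxcl10 in mLIF against PBS, -0.15 to 0.39 in mOSM against mLIF and -0.17 to 0.38 in hlOSM against mLIF, each reversed without mLIF replicate 3. They ranged from -0.10 to 0.50 for Ackr3 in mOSM against PBS and from -0.30 to 0.30 in hlOSM against PBS (reversed without PBS replicate 2 and without PBS replicate 3, respectively), and from -0.18 to 0.0494 for Ccl2 in hlOSM against PBS and from -0.21 to 0.019 in hlOSM against mOSM (both reversed without hlOSM replicate 2).

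With replicate number as a replicate block, the number of members called was 0 in mLIF against PBS, 3 in mOSM against PBS, 4 in hlOSM against PBS, 2 in mOSM against mLIF, 5 in hlOSM against mLIF, 0 in hlOSM against mOSM and 0 in the interaction, beside 0, 4, 4, 3, 5, 1 and 0 without it. The lost calls were Cxcl12, Ackr3 and Cxcr4. Libraries of the same number in different conditions correlated at a median r of -0.32 after removal of condition means, beside 0.167 for other numbers. Replicate numbers held 1.7% of the sum of squares within conditions, where unrelated libraries would give 25% on average (a check added after the data were seen). Whether the numbers pair samples cannot be told from these values. If a difference between numbers was removed before deposit, which was not tested, p-values without the block are too small. Over all genes tested the block moved the count with mLIF from 1307 to 784.

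Values under about 20, such as those of Cxcl9, Cxcl10 and Cxcr4, are whole numbers after rounding, and their log2 changes move with the pseudocount. With 3 libraries in a condition, small changes such as that of Cxcl12 lie at the limit of the threshold.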
